A study of Homo sapiens with 8 samples.

Results

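The genes described here are LATS1, LATS2, STK3, SAV1, WWC1 and NF2, which encode kinases and scaffolds of the Hippo pathway upstream of YAP. Their members are the peaks whose centre lay within 100 kb of 1 start site per gene, which gave 35 of 38186 TEAD1 peaks, 18 of 12188 TEAD4 peaks, 1 of 847 HA-YAP5SA peaks, 0 of 454 YAP peaks and 0 of 153 TAZ peaks. The start sites, as named by the selection rule in hg19, were base 150039392 of chromosome 6 for LATS1, 21635722 of chromosome 13 for LATS2, 99837889 of chromosome 8 for STK3, 51134900 of chromosome 14 for SAV1, 167719065 of chromosome 5 for WWC1 and 29999545 of chromosome 22 for NF2. The peaks came from ChIP-seq, in which DNA fragments bound by a protein are precipitated with an antibody and sequenced, and all libraries share HuCCT1, a cell line from a human cancer of the bile duct (cholangiocarcinoma). HA-YAP5SA is a mutant of YAP that LATS kinases cannot phosphorylate, since alanine takes the place of their target serines; it was precipitated through its HA tag, and antibodies against YAP, its paralogue TAZ (WWTR1), TEAD1 and TEAD4 gave the other 4 lists. No treatment is given for any library, there was 1 library per antibody, and the input, IgG and GFP libraries that serve as background were not analysed here. The depth behind each list is unknown and no value below has a replicate check. HA-YAP5SA, as a tagged mutant, has to be introduced into cells, while the titles for TEAD1, TEAD4, YAP and TAZ name no construct. An overlap of HA-YAP5SA with a TEAD peak may therefore join cells in different states. Whether both proteins were bound in the same cells was not tested.

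In the Hippo pathway, STK3 with its adaptor SAV1 activates LATS1 and LATS2, and the scaffolds encoded by WWC1 and NF2 bring LATS to the plasma membrane. LATS kinases phosphorylate YAP and TAZ and keep them out of the nucleus. Unphosphorylated YAP and TAZ enter the nucleus and act through the DNA-binding TEAD factors. LATS2 and NF2 are known as transcriptional targets of YAP in other cells, which makes a negative feedback loop. The comparison asked which of these upstream genes carry TEAD peaks, and which carry YAP peaks as well.

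TEAD1 and TEAD4 peaks lay near 5 of the 6 genes, LATS2, STK3, SAV1, WWC1 and NF2. LATS1 had no peak of any list within 100 kb. Near each of the 5 genes at least 1 TEAD1 peak overlapped a TEAD4 peak, sharing at least 1 bp. Among all 15179 adjoining windows of 200 kb along chromosomes 1 to 22 and X, 67.5% held a TEAD1 peak, 38.9% a TEAD4 peak and 38.3% a TEAD1 peak that overlapped TEAD4. The single peak of a YAP form was a HA-YAP5SA peak just upstream of the LATS2 start, and 4.94% of all windows held a HA-YAP5SA peak, as did 12.4% of the windows with a TEAD1 and TEAD4 pair. The antibodies against YAP and TAZ gave no peak near any of the 6 genes, and 0.883% and 0.329% of all windows held a YAP peak and a TAZ peak.

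The promoter of LATS2 is shown because it is the single start site of the 6 that lay inside a TEAD peak, and the promoter of its paralogue LATS1 because no peak lay near it. Both are RefSeq sequences on GRCh38.p14 in the direction of transcription, with 250 bases before the annotated start and 50 after it. They span chr13:21061537-21061836 for LATS2 and chr6:149718052-149718351 for LATS1, both on the minus strand. Capitals mark the hexamer GGAATG, the core letters of the motif that TEAD factors bind, searched on both strands.
LATS2: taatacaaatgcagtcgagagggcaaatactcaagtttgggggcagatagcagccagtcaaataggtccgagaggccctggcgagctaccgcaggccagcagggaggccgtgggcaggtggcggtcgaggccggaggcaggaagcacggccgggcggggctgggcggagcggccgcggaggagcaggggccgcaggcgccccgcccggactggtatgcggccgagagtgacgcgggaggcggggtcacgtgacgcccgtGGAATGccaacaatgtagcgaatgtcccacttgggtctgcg
LATS1: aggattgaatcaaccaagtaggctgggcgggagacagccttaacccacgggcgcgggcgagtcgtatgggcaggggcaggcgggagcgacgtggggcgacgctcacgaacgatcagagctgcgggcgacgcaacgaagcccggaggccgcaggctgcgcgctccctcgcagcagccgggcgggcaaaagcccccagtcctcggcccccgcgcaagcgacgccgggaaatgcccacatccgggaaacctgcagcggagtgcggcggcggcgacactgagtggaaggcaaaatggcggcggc
GGAATG was present once in the LATS2 promoter, on the coding strand, at bases 10 to 15 counted from the start as base 1. It was not present in the other 6 promoter sequences listed for LATS1, SAV1, WWC1 and NF2, where LATS1 and NF2 have a pair of entries each. Of all 35116 promoters of the same length, 14.0% held it on either strand. The motif TGANTCA, bound by AP-1 factors, was present in the LATS1 promoter shown, at a single position that reads on both strands and begins 245 bases before the start. It was not present in the other 6 sequences, and 7.71% of all promoters held it. The match of a motif is a description of the sequence only.

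**Figure D1:**
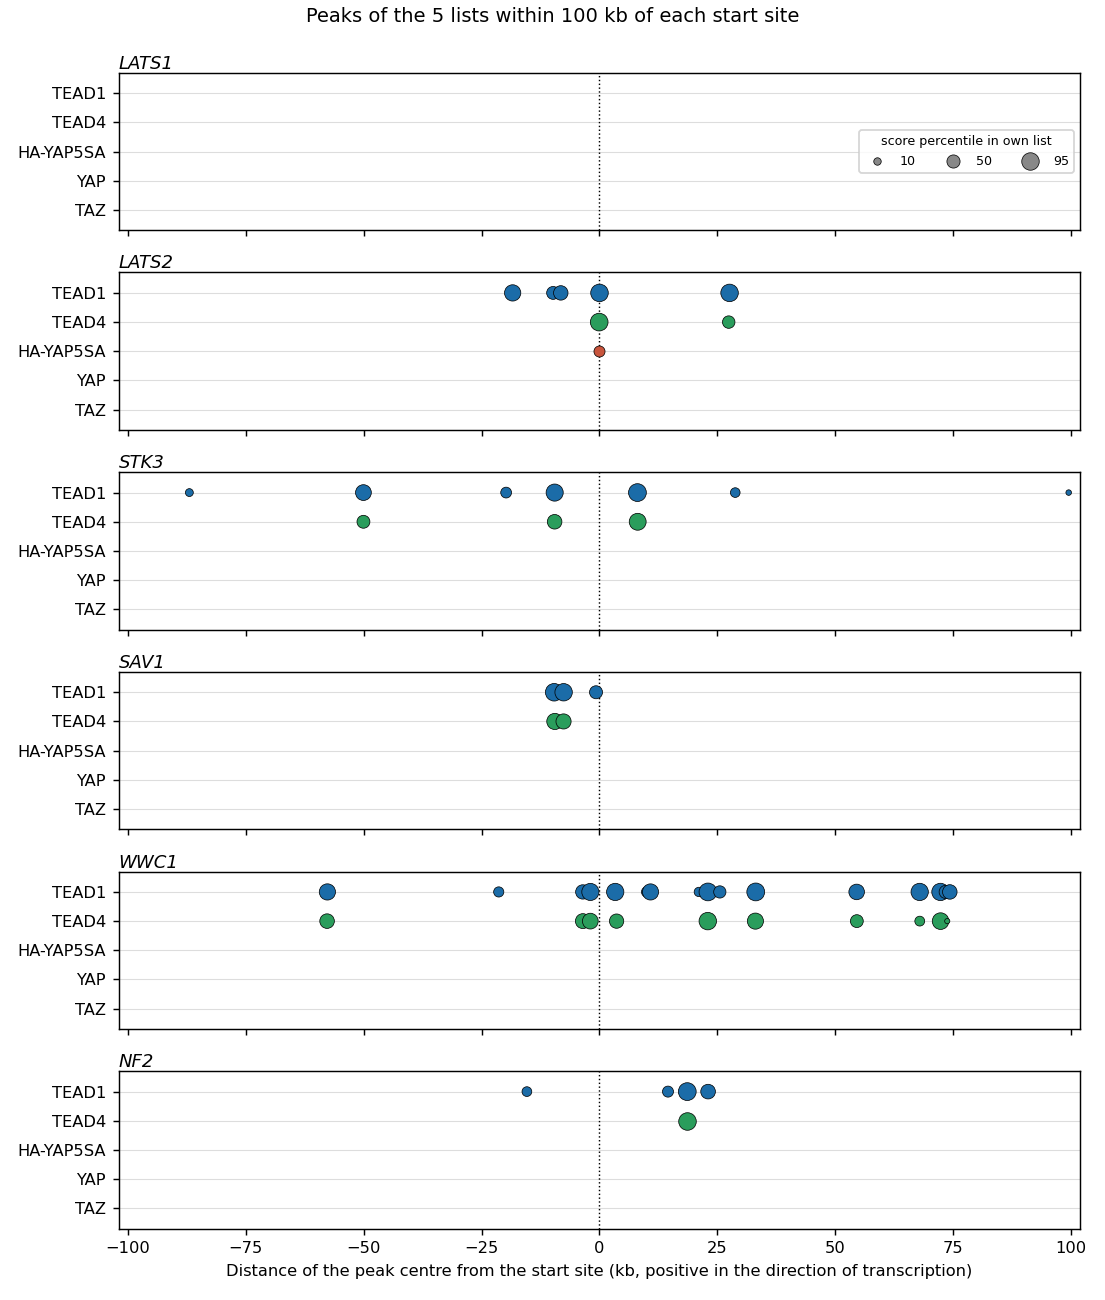
Positions of all 54 peaks within 100 kb of the 6 start sites, with 1 panel per gene and 1 row per list; the x axis is the distance of the peak centre from the start in kb, positive in the direction of transcription, and larger points have a higher score percentile in their own list. LATS2 is the single gene with TEAD1 and TEAD4 peaks on its start and a HA-YAP5SA peak just upstream of it, WWC1 has the most peaks, and the LATS1 panel is empty.

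LATS2, a kinase that phosphorylates YAP and TAZ, had 5 TEAD1 peaks, 2 TEAD4 peaks and 1 HA-YAP5SA peak. A TEAD1 peak (chromosome 13, hg19 21635356 to 21636053, score 979.5) and a TEAD4 peak (21635476 to 21636064, score 840.5) both contained the start. The score is the authors' own value for a peak, on a scale that is not stated, and ranks peaks only within a list. Of all TEAD1 peaks 96.0% scored lower than this one, and of all TEAD4 peaks 97.9% scored lower. The HA-YAP5SA peak (21635746 to 21635981, score 98.2) overlapped both and lay wholly upstream, from 24 to 259 bases before the start. Its score exceeded that of 32.8% of HA-YAP5SA peaks, so it stood low in its own list while both TEAD peaks stood high in theirs. The TEAD1 peak reached from 331 bases before the start to 366 bases after it. Where the hg19 and RefSeq starts are the same base, which was not tested, the promoter sequence above lies inside the TEAD1 peak and its GGAATG lies just downstream of the HA-YAP5SA peak.

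A second TEAD1 site of LATS2 lay 27.6 kb downstream of the start (21607545 to 21608682, score 939) and overlapped a TEAD4 peak with a score of 147. The TEAD1 scores of these LATS2 sites were close, but the TEAD4 scores stood far apart, and HA-YAP5SA overlapped the TEAD site at the start alone. The other LATS2 peaks were 3 TEAD1 peaks upstream, 8.19, 9.82 and 18.4 kb from the start, with scores of 234, 170 and 420 and no TEAD4 peak. The nearest YAP antibody peak on chromosome 13 lay 45.7 Mb from the LATS2 start and the nearest TAZ peak 88.4 Mb from it.

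LATS1, the paralogous kinase, had no peak of the 5 lists within 100 kb. The nearest TEAD1 peak lay 128 kb upstream of its start (chromosome 6, 150167309 to 150167901, score 225). The next lay 136.7 kb upstream (150175496 to 150176735, score 1534) and overlapped a TEAD4 peak with a score of 531. That TEAD1 score was higher than 98.98% of the list, so a high-scoring pair of TEAD peaks lay beyond the LATS1 window, and whether it belongs to LATS1 was not tested. All 8 TEAD1 peaks within 250 kb of the LATS1 start were upstream, and 2 of them overlapped TEAD4. The nearest HA-YAP5SA peak was 1.27 Mb from the start.

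STK3, also called MST2, phosphorylates and activates LATS kinases. It had 7 TEAD1 peaks and 3 TEAD4 peaks, and each TEAD4 peak lay on a TEAD1 peak. The highest-scoring site lay 8.07 kb downstream of the start (chromosome 8, 99829339 to 99830305), with a score of 1503 for TEAD1 and 421 for TEAD4. The other shared STK3 sites lay 9.49 kb upstream, with scores of 659 for TEAD1 and 209 for TEAD4, and 50.1 kb upstream, with 343 for TEAD1 and 156 for TEAD4. Both TEADs thus ranked the 3 shared STK3 sites in the same order. The 4 TEAD1 peaks of STK3 without TEAD4 scored from 81.8 to 124, below all of its shared sites. The nearest HA-YAP5SA peak lay 6.29 Mb from the STK3 start.

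SAV1, the adaptor that binds STK3, had 3 TEAD1 peaks and 2 TEAD4 peaks, all upstream of its start. The TEAD1 peak nearest to the start (chromosome 14, 51135376 to 51135862, score 173) had its centre 719 bp upstream and carried no TEAD4 peak. Further upstream, 7.59 kb from the start (51142114 to 51142873), TEAD1 scored 836 and TEAD4 236. At 9.60 kb upstream (51144048 to 51144945), TEAD1 scored 984 and TEAD4 317. The highest SAV1 scores were thus not at the start but in a close pair of sites upstream of it, on the side of NIN, the next protein-coding gene in the RefSeq table. SAV1 was the gene with the nearest YAP antibody peak, which was still 1.16 Mb from its start.

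WWC1, the scaffold protein KIBRA that acts with the NF2 product, had the most peaks of the 6 genes, 16 of TEAD1 and 10 of TEAD4. Of all windows of 200 kb, 0.349% held at least 16 TEAD1 peaks and 0.112% held at least 10 TEAD4 peaks. At least 7 TEAD1 peaks, as near STK3, were held by 9.96% of windows, at least 5, as near LATS2, by 20.0%, at least 4, as near NF2, by 27.5% and at least 3, as near SAV1, by 38.3%. The median window held 2 TEAD1 peaks and 0 TEAD4 peaks. Windows around the 6 genes are centred on a start site, and the compared windows lie anywhere, so the shares describe the density only. Without WWC1 the members would be 19 TEAD1 and 8 TEAD4 peaks.

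**Figure D2:**
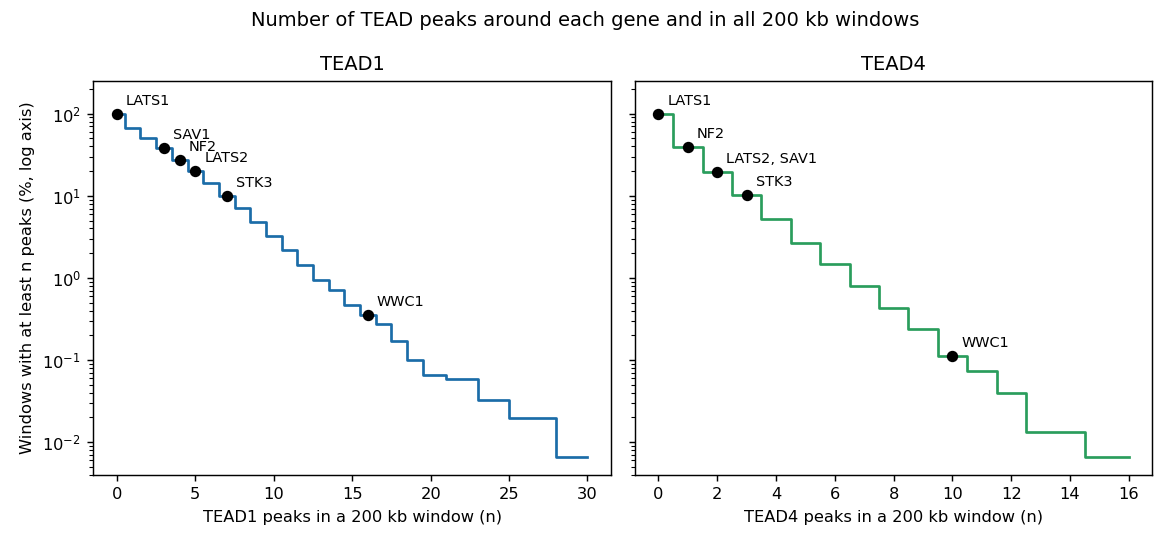
Share of all 15179 windows of 200 kb (y axis, percent, log axis) that hold at least n peaks (x axis), for TEAD1 at the left and TEAD4 at the right, with the 6 genes marked as points at their own number of peaks. WWC1, with 16 TEAD1 and 10 TEAD4 peaks, lies far along both curves at 0.349% and 0.112%, and the other genes lie at 9.96% or above.

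The WWC1 peaks spread on both sides of the start, with 4 TEAD1 peaks upstream and 12 downstream. None contained the start, and the nearest TEAD1 centre lay 1.92 kb upstream (chromosome 5, 167716754 to 167717534), with a score of 669.8 for TEAD1 and 277 for TEAD4. The highest WWC1 scores were downstream. At 33.2 kb (167751589 to 167752866) TEAD1 scored 1599.5 and TEAD4 309. At 23.0 kb (167741615 to 167742562) TEAD1 scored 1367 and TEAD4 607. The order of these WWC1 sites thus differed between the TEADs. Another group lay 67.9 to 74.3 kb downstream, where TEAD1 scored 771, 799, 179 and 238, and TEAD4 peaks lay on all but the last, with scores of 108, 370 and 80.2. The 6 WWC1 TEAD1 peaks without TEAD4 scored from 107 to 399. No HA-YAP5SA peak lay closer than 1.93 Mb to the WWC1 start.

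NF2, which encodes the membrane-linked scaffold merlin, had 4 TEAD1 peaks and 1 TEAD4 peak. They met 18.6 kb downstream of the start (chromosome 22, 30017669 to 30018694), where TEAD1 scored 1594 and TEAD4 683. Of all TEAD1 peaks 99.13% scored lower, and of all TEAD4 peaks 96.2%. The other NF2 TEAD1 peaks had scores of 111 at 15.4 kb upstream, 128 at 14.5 kb downstream and 246 at 23.1 kb downstream. NF2 thus had 1 site that stood high in both TEAD lists, with 3 TEAD1 peaks of far lower score and no TEAD4 around it, and no peak within 10 kb of the start. The nearest HA-YAP5SA peak was 2.14 Mb from the NF2 start and the nearest TAZ peak 1.87 Mb.

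Across the 5 genes with peaks, 18 of the 35 TEAD1 peaks overlapped TEAD4 (51.4%, exact 95% binomial interval 34.0 to 68.6%), beside 30.6% of the whole TEAD1 list. The interval covers counting error over peaks only. Neighbouring peaks of 1 gene are not independent. The share was 32.4% among the 74 TEAD1 peaks within 250 kb of the starts, a window chosen after the values were seen. All 18 TEAD4 peaks lay on TEAD1, beside 97.1% of the whole TEAD4 list. The median distance between paired centres was 46.3 bp near the 6 genes, beside 43.5 bp over all 11668 TEAD1 peaks with TEAD4.

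TEAD1 peaks near the genes included many with high scores. Their median score was 318 (quartiles 140 and 785), against 177 (113 and 333) for the whole TEAD1 list. Their median score percentile in the list was 73.5, with 64.2 when WWC1 was left out and 55.8 within 250 kb. The 250 kb window was chosen after the values were seen. Peaks near the genes lie around start sites and those of the list lie anywhere, so the comparison is a description. The highest decile of TEAD1 scores, from 629 upwards, held 13 of the 35 peaks (37.1%, interval 21.5 to 55.1%), beside 10.0% of the list by definition. These were 6 near WWC1, 2 each near LATS2, STK3 and SAV1, and 1 near NF2, so that each of the 5 genes had at least 1. All 13 overlapped TEAD4, beside 97.0% of the highest decile of the list, and of the 22 peaks below it 5 did (22.7%, 7.82 to 45.4%), beside 23.2%. Within each score class the share with TEAD4 was thus close to that of the list. Near the genes, TEAD1 peaks with TEAD4 scored from 179 to 1599.5 and those without from 81.8 to 420, so the ranges overlapped.

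**Figure D3:**
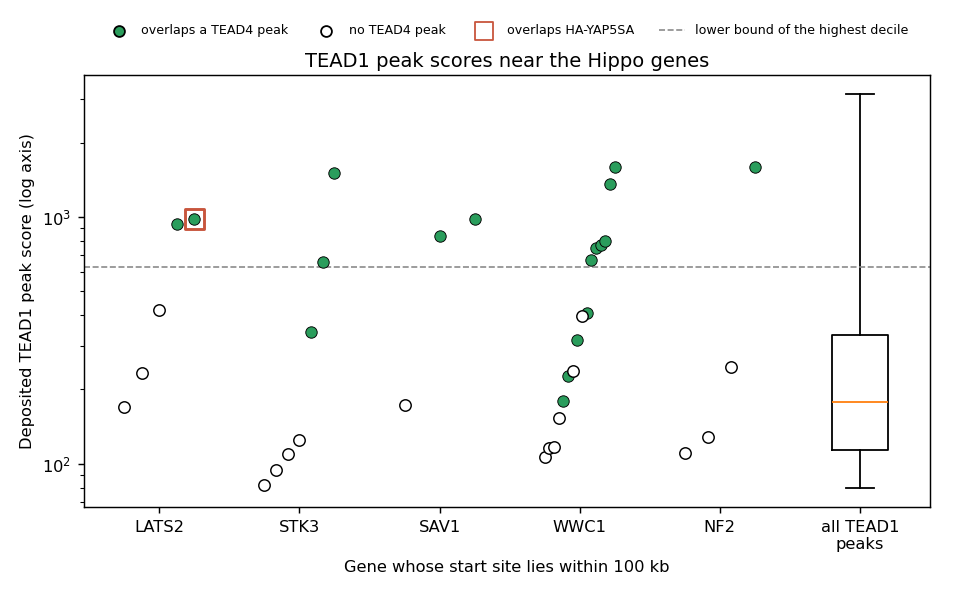
Deposited TEAD1 score (y axis, log axis) of each of the 35 TEAD1 peaks, by gene and in order of score within a gene, with filled points for peaks that overlap TEAD4, a square for the peak that overlaps HA-YAP5SA, and a box at the right for the whole TEAD1 list (median, quartiles, lowest and highest). The dashed line is the lower bound of the highest decile at 629; each gene has filled points above it, 13 in all, and no open point lies above it.

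A HA-YAP5SA peak overlapped 1 of these 35 TEAD1 peaks (2.86%, interval 0.0723 to 14.9%), beside 2.06% of the list, and at 1 of the 18 TEAD4 peaks (5.56%, 0.141 to 27.3%), beside 6.28%. In the highest TEAD1 score decile it was present at 1 of 13 peaks (7.69%, 0.195 to 36.0%), beside 17.3%. A total of 6 TEAD1 peaks near the genes scored as high as the one at the LATS2 start or higher, a level chosen after the values were seen. They were 2 near WWC1 and 1 each near LATS2, STK3, SAV1 and NF2, and the one at LATS2 was the single one with HA-YAP5SA, beside 32.2% of the 1532 such peaks in the list. Since that level is the score of the peak with HA-YAP5SA itself, a count of at least 1 was fixed by the choice. Each of these shares rests on 1 peak, and none was tested against the list. YAP was present at 0 of the 35 TEAD1 peaks (interval 0 to 10.0%), beside 80 of the 38186 peaks of the list (0.210%). A lack of YAP at TEAD1 peaks is thus not particular to the 6 genes. TAZ was also present at 0 of the 35, and it overlapped 0 of all 38186 TEAD1 peaks. The lack of TAZ at these TEAD1 peaks is thus not particular to the 6 genes.

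**Figure D4:**
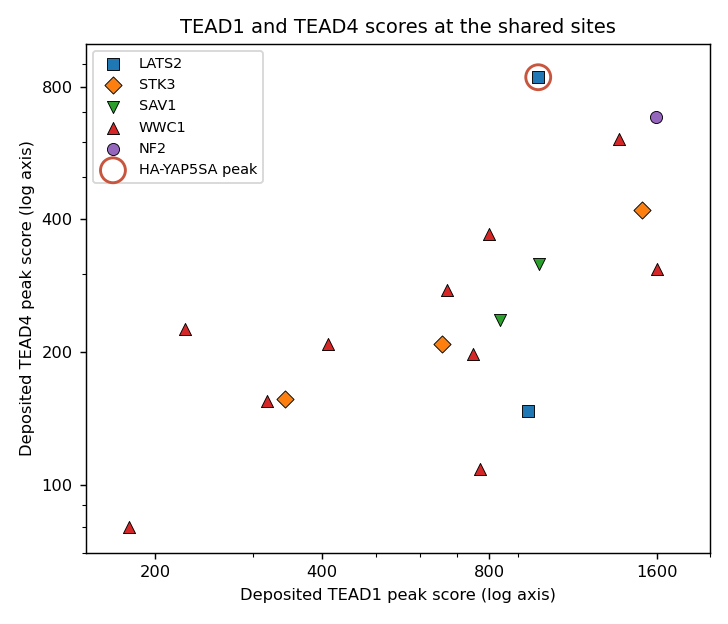
Deposited scores of TEAD1 (x axis, log axis) and TEAD4 (y axis, log axis) at the 18 sites near the genes where peaks of both overlap, with 1 marker shape per gene and a circle on the site that also carries HA-YAP5SA. The LATS2 start has the highest TEAD4 score, 840.5, while 5 other sites have a TEAD1 score above 979.5.

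Over the 18 shared sites the TEAD4 score tended to be higher where the TEAD1 score was higher, with a Spearman rho of 0.699, beside 0.727 over all 11668 such sites. The sites come from 2 libraries and 5 genes, and the value is a description. The site at the LATS2 start had the highest TEAD4 score of the 18 and the sixth highest TEAD1 score. The spacing of TEAD1 peaks differed between the genes. Over all 35 peaks, the median distance to the nearest other TEAD1 centre was 4.42 kb, against 11.7 kb over the whole list, and 23 of the 35 lay within 10 kb of another (65.7%, 47.8 to 80.9%), beside 46.3%. WWC1 supplied 13 of these 23, and STK3 none of its 7. Without WWC1 the median distance was 8.58 kb, and 10 of 19 peaks lay within 10 kb of another (52.6%). Of the 35, 2 lay within 1 kb of a start, 11 within 10 kb and 26 within 50 kb. At the edge of the window, the TEAD1 peak furthest from a start was 99.6 kb from STK3 (score 81.8), and the nearest one left out was 101.6 kb from STK3 (score 153).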

How the data were processed

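Chromatin from HuCCT1 cells was fixed with formaldehyde, sonicated, precipitated and sequenced, per the labels' protocols. Bowtie2 and hg19 are named in the submitters' processing notes. Each deposited peak is named MACS with a number, after a peak caller. Its version, threshold and control library are not given in the sources used. Each list came from 1 library, with no pooling. The deposited peak score is the authors' own, on an unstated scale that begins at about 80 in each list, so scores were ranked only within a list, and the number of peaks also reflects depth, antibody and threshold. Lists with a header were read as counted from 1 and the others as counted from 0, so starts are uncertain by 1 bp.

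Samples were grouped by title. Peaks were selected by centre, and overlaps of at least 1 bp were counted. Start sites came from the selection rule, 1 per gene, and genes can have others. The strand came from the RefSeq promoter table, which matched 5 of the 6 genes, and for STK3 from general knowledge. No hg19 annotation was used, so exons, introns and the genes nearest to each peak were not assigned, and other Hippo genes were not analysed here. All 6 genes are named; for each, the rule named its nearest and highest-scoring peaks and every HA-YAP5SA, YAP and TAZ peak. With 1 library per antibody no test was made, and intervals are exact Clopper-Pearson intervals at 95%. The window and overlap functions were tested on simulated data. Members, lists and rules were chosen with earlier results of these data known. Alternatives were other windows, a stricter score, other overlap rules and leaving out each gene. Scripts ran in Python 3.11.15 with SciPy 1.17.1 for intervals, pandas 2.3.3 and NumPy 2.4.6 for tables, and matplotlib 3.10.9 for figures.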

Additional observations from a re-analysis of the deposited data

How the results depend on the processing

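The number of genes with a TEAD1 and TEAD4 pair stayed at 5 with windows of 50 and 25 kb, stricter scores and both other overlap rules, and was 6 at 250 kb, a window added after the data were seen. YAP and TAZ peaks stayed at 0 in all alternatives run. Smaller windows, the stricter score and leaving out a gene could only return 0. The 250 kb window and counting peaks with any base in the window could have given more, and both gave 0. Within 25 kb there were 22 TEAD1 and 10 TEAD4 peaks. Within 250 kb there were 74 TEAD1 peaks, of which 32.4% overlapped TEAD4, and their median score percentile was 55.8, against 73.5 within 100 kb; the cause was not tested. When peaks below their own list's median score were dropped, 23 TEAD1 peaks remained, at a median percentile of 91.1, which the score limit raises by construction, and the HA-YAP5SA peak dropped out, leaving 0 such peaks, 0 genes and 0% of TEAD1 peaks.

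With each gene left out in turn, TEAD1 peaks numbered 19 to 35 and TEAD4 peaks 8 to 18, both lowest without WWC1. The HA-YAP5SA peaks and the genes with one ranged from 0 to 1, with 0 without LATS2, and genes with a TEAD pair from 4 to 5. These ranges of counts follow from the counts per gene and are no check of them. The share of TEAD1 peaks with TEAD4 ranged from 42.1 to 54.8%, the share with HA-YAP5SA from 0 to 5.26%, and the median TEAD1 percentile from 64.2 to 76.8. No paired analysis was possible because each antibody has 1 library. The depth of each library is unknown, so a missing peak shows only that none passed the authors' threshold.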
